A study of Mus musculus with 26 samples.

Results

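The genes described here are 10 ligands and receptors of the vascular endothelial growth factor (VEGF) and angiopoietin families: the ligands Vegfa, Vegfb, Vegfc and Vegfd, the receptors Flt1 and Kdr, the co-receptors Nrp1 and Nrp2, and the angiopoietins Angpt1 and Angpt2. They were taken as listed symbols and matched by Ensembl identifier. All 10 were found among the 55414 gene identifiers that the tables of the aorta and the mesenteric arteries share, and all 10 passed the filter on low counts in every comparison.

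VEGF ligands are secreted proteins that bind receptor tyrosine kinases on endothelial cells. VEGFA acts through KDR (VEGF receptor 2), the main signalling receptor for endothelial growth and permeability, while FLT1 (VEGF receptor 1) binds VEGFA and VEGFB tightly, signals weakly and also exists as a soluble decoy. The neuropilins NRP1 and NRP2 are co-receptors that also bind class 3 semaphorins, and VEGFC and VEGFD act mainly on the lymphatic receptor FLT4. Angiopoietin 1, made largely by mural and stromal cells, activates the endothelial receptor TEK (TIE2) and stabilises vessels, whereas angiopoietin 2 acts on the same receptor as a context-dependent antagonist.

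The libraries came from aorta and mesenteric arteries of male C57BL6J mice with floxed Sphk1 alleles, 13 libraries per tissue and 26 in all. Knockout mice (Sphk1f/fTagln-cre+, KO) carried a Cre transgene driven by the smooth muscle Tagln (SM22α) promoter, and control mice (Sphk1f/fTagln-cre-, WT) had the same floxed alleles without it. The groups in each tissue were KO mice infused with angiotensin II (AngII) at 490 ng/kg/min for 14 days from an osmotic minipump (n = 5), WT mice infused in the same way (n = 4) and WT sham mice (n = 4). Infused mice were aged 12 to 14 weeks at the start. KO sham mice were not analysed here, so KO AngII against WT sham joins the genotype and the infusion. Sphk1 encodes sphingosine kinase 1, which makes sphingosine-1-phosphate, and the comparisons ask how AngII hypertension and the loss of this enzyme from smooth muscle changed arterial RNA.

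RNA was poly(A)-selected from whole vessels, so a level reflects all cells of the wall and its surroundings, and fewer cells of a type and less RNA per cell cannot be told apart. Depth, as assigned reads, was between 23.49 and 32.25 M in the aorta and between 17.54 and 30.05 M in the mesenteric arteries. Levels are counts scaled by TMM to a common library size of 1 M assigned reads (CPM), given as mean ± SD, and a gene is said to have risen or fallen only when the Benjamini-Hochberg adjusted p of edgeR's quasi-likelihood test over all genes was below 0.05. Sphk1 itself averaged 2.61 ± 0.735 CPM in KO AngII aorta, 19.4 ± 6.12 CPM in WT AngII aorta and 4.75 ± 1.28 CPM in WT sham aorta, and it fell in KO against WT AngII mice in both tissues. All 12 smooth muscle and all 14 endothelial markers were detected in every library. Summed markers of gut and pancreas reached 4.673 to 8.824 CPM in aortic libraries but 14.5 to 76190 CPM in mesenteric libraries, in all 3 groups. Mesenteric KO AngII replicate 3 stood apart, with summed macrophage markers at 2248 CPM against 226.6 to 842 CPM in the other mesenteric libraries, and 14.7% of its records were not aligned. Mesenteric KO AngII replicates 2 and 4 (11.43% and 14.23%) and WT AngII replicate 1 (12.02%) were also poorly aligned, against 0.894 to 2.52% in mesenteric sham libraries. In mesenteric arteries alignment therefore cannot be fully told apart from group.

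Promoters are printed for Flt1, Nrp1 and Nrp2, which rose with AngII in the aorta, and for Kdr, the other VEGF receptor listed. Each is the 300-base window from RefSeq on GRCm38.p6, 250 bases before to 50 bases after the gene's start, 5′ to 3′ on the gene's own strand, with matches to the searched motifs in capitals. Flt1 lies at chr5:147725962-147726261 on the minus strand, Kdr at chr5:75978406-75978705 on the minus strand, Nrp1 at chr8:128358823-128359122 on the plus strand and Nrp2 at chr1:62703067-62703366 on the plus strand.
Flt1: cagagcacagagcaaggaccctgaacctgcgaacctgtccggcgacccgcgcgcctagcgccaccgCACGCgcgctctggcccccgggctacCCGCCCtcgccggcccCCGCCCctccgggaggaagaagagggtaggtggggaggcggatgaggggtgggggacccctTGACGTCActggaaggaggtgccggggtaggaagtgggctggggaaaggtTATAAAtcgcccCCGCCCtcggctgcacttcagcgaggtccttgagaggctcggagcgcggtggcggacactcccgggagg
Kdr: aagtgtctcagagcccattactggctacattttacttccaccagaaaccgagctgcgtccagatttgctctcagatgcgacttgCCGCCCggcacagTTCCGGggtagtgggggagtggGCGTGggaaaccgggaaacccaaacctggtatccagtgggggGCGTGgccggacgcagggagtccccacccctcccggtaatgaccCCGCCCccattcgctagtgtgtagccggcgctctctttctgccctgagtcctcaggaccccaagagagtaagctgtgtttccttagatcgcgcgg
Nrp1: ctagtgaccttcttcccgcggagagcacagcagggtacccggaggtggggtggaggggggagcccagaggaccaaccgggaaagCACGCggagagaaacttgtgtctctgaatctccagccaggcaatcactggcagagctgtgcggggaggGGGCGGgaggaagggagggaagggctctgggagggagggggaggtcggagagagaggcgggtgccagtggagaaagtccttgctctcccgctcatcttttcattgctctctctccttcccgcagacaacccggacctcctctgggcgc
Nrp2: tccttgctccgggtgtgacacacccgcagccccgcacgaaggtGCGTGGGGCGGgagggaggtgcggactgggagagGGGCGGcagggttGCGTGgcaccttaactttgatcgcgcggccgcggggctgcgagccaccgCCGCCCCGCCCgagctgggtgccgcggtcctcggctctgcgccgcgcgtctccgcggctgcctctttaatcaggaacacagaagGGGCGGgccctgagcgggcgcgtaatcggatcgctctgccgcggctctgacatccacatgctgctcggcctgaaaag

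The motifs were searched on both strands, with positions counted from 1 at the window's 5′ end. The Flt1 window alone of these 4 held the cyclic AMP response element TGACGTCA, at position 170, which 1.79% of 32851 promoters of the same length held, and a TATA box (TATAAA) at position 220, held by 13.6%. GC boxes (GGGCGG, 35.7% of promoters) were found 3 times in Flt1, 2 times in Kdr, 1 time in Nrp1 and 5 times in Nrp2, where a pair at positions 140 and 145 overlaps. The ETS core CCGGAA, held by 14.9% of promoters, occurred 1 time, in Kdr at position 98. Of the hypoxia-response cores, GCGTG (32.4% of promoters) occurred in all 4 windows, 1 time each in Flt1 and Nrp1 and 2 times each in Kdr and Nrp2, and ACGTG (19.6% of promoters) in none. These matches describe the letters of the windows only.

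Levels between genes were compared per kilobase of annotated exon, a length that includes exons of isoforms the vessel may not use. In the aorta Vegfd had the highest mean: it averaged 34.0 CPM per kb in KO AngII, 37.6 in WT AngII and 33.6 in WT sham, followed by Angpt2 at 22.9, 27.1 and 24.8 CPM per kb in the same groups. Angpt1 was lowest at 0.969, 0.615 and 0.45 CPM per kb, and Kdr stood close above it in sham aorta at 0.785 CPM per kb. The ranges of Nrp2, Kdr and Angpt1 overlapped their neighbours in KO AngII aorta, as did those of Vegfb with Vegfa and of Vegfa with Nrp1, so the order among these does not hold beyond the spread of the libraries. Vegfd also overlapped Angpt2 in WT AngII aorta, and Angpt2 overlapped Vegfb in WT sham aorta. Vegfc ranked below Nrp1 in all 3 aortic groups. In the mesenteric arteries the 4 VEGF ligands led with 24.2 (Vegfd), 21.7 (Vegfa), 19.0 (Vegfb) and 16.5 (Vegfc) CPM per kb in KO AngII mice, and every neighbouring pair overlapped except Nrp1 over Angpt1.

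The balance of related members differed between the vessels. Angpt2 exceeded Angpt1 per kb by a median of 29.3-fold in KO AngII aorta (range 14 to 31.9), 50.1-fold in WT AngII aorta (19.9 to 127) and 62.3-fold in WT sham aorta (34.5 to 96.9). In mesenteric arteries the same ratio was 4.64 in KO AngII, 3.72 in WT AngII and 3.4 in WT sham. Nrp1 exceeded Nrp2 in every aortic library, with medians of 4.41, 5.74 and 8.27 in KO AngII, WT AngII and WT sham, while Nrp2 exceeded Nrp1 in every mesenteric library, with medians of 0.357, 0.455 and 0.288.

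**Figure D1:**
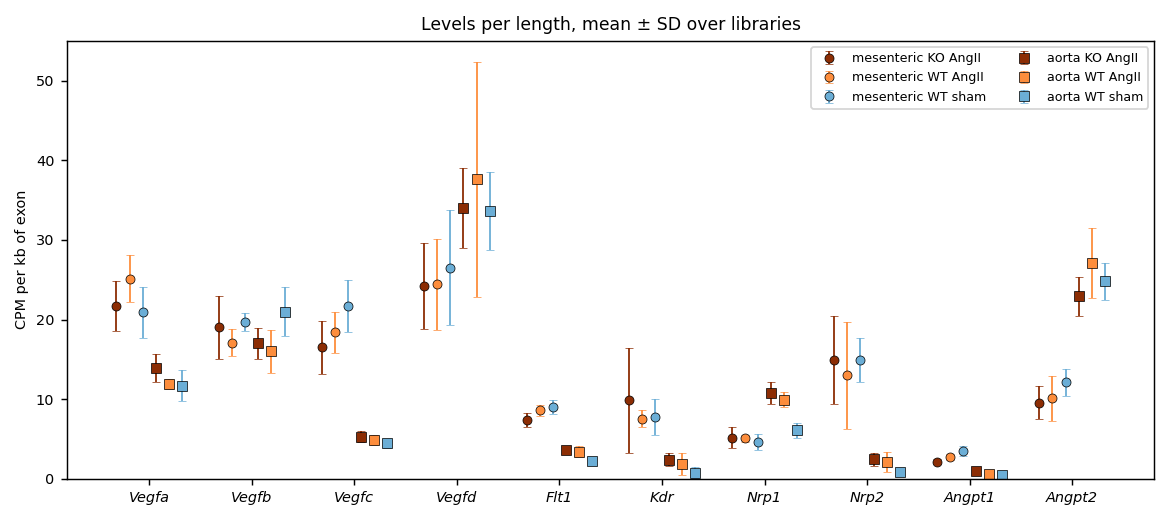
Level of each gene per kilobase of exon (CPM per kb, linear axis from 0), as the mean with bars of 1 SD over the libraries of a group, circles for mesenteric arteries and squares for aorta. Vegfd and Angpt2 have the highest means in the aorta (34.0 and 22.9 CPM per kb in KO AngII) and Angpt1 is lowest, while Nrp2 stands above Nrp1 in mesenteric arteries and below it in the aorta.

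AngII in the aorta of WT mice raised Flt1, Nrp1 and Nrp2 and lowered Vegfb, while the other 6 members did not pass the test. Of the 10 members, 4 were called, against 25.5% of the 16863 genes tested (14.7% higher and 10.8% lower). The median log2 fold change of the members was 0.30, beside -0.001 over all genes. Scaling by library size alone moved the median over all genes by -0.126 and turned the direction of no called member.

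Flt1 stood at 43.3, 48.2, 36.4 and 56.8 CPM in WT AngII aorta, against 29.5, 28.6, 31.4 and 31.8 CPM in WT sham aorta. All infused libraries were above all sham libraries, and the sham libraries lay close together. The log2 fold change was 0.59 ± 0.122 (SE, edgeR adjusted p = 0.00259), with a 95% interval of 0.33 to 0.85. The change passed the test under all 18 alternative settings, with values of 0.46 to 0.69.

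Nrp1 stood at 110, 95.7, 88.2 and 94.5 CPM in WT AngII aorta, against 66.2, 51.3, 52.4 and 69.1 CPM in WT sham aorta. The groups did not overlap. The rise of 0.69 ± 0.116 on the log2 scale (interval 0.44 to 0.94, edgeR adjusted p = 0.00061) also held under all 18 alternatives. Nrp1 overlaps the microRNA gene Mir1903 by 80 bases on the same strand, so reads of that stretch could have been counted as ambiguous.

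Nrp2 stood at 46.4, 19.9, 18.9 and 13.1 CPM in WT AngII aorta, against 10.4, 5.75, 7.16 and 14.7 CPM in WT sham aorta. Replicate 1 of the infused mice was far above the rest, and 1 infused library fell below the highest sham library. The log2 fold change was 1.36 ± 0.434 (interval 0.41 to 2.31, edgeR adjusted p = 0.0391). Without WT AngII replicate 1 it was 0.85 (edgeR adjusted p = 0.127), and the call was also lost without WT AngII replicate 2, without sham replicates 1, 2 or 3, with library size alone, with no filter, with the endothelial marker level as a covariate and when the 2 groups were fitted alone.

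Kdr, the principal VEGFA receptor, varied widely. It stood at 34.6, 15.6, 12.9 and 4.71 CPM in WT AngII aorta, against 4.94, 1.59, 5.19 and 16.6 CPM in WT sham aorta, down to 42 reads in a library. The groups overlapped widely, and the log2 fold change of 1.26 ± 0.689 did not pass the test (interval -0.26 to 2.77, edgeR adjusted p = 0.215).

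Among the ligands, Vegfb, which binds FLT1, stood at 29.2, 23.8, 29.2 and 20.4 CPM in WT AngII aorta, against 27.0, 36.7, 33.1 and 38.0 CPM in WT sham aorta. A single sham library lay within the infused range. Vegfb fell by 0.40 on the log2 scale (SE 0.132, edgeR adjusted p = 0.0355), and this call was lost when the endothelial marker level was a covariate (adjusted p = 0.112 by edgeR), when the 2 groups were fitted alone, under the replicate block, and without WT AngII replicates 2 or 4 or sham replicates 2, 3 or 4.

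Vegfa, the main angiogenic ligand, averaged 51.1 ± 2.63 CPM in WT AngII aorta and 50.3 ± 8.29 CPM in WT sham aorta, a log2 fold change of 0.01 with an interval of -0.23 to 0.25. Vegfc, a lymphangiogenic ligand, averaged 12.0 ± 1.46 and 10.9 ± 1.38 CPM in WT AngII and WT sham aorta, and Vegfd, its close relative, 90.5 ± 35.7 and 81.0 ± 11.8 CPM. Vegfd ranged from 51.9 to 138 CPM among the infused mice, on both sides of the sham libraries.

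Angpt1 averaged 3.2 ± 1.79 CPM in WT AngII aorta and 2.34 ± 1.03 CPM in WT sham aorta, with only 35 to 208 reads per aortic library. Its log2 fold change of 0.44 ± 0.419 did not pass the test (edgeR adjusted p = 0.484). Angpt2 averaged 100 ± 16.1 CPM in WT AngII aorta and 91.6 ± 8.55 CPM in WT sham aorta (0.11 on the log2 scale, edgeR adjusted p = 0.509). Angpt1 overlaps the gene Gm17473 on the opposite strand by 737 bases, and since no source used here states whether counting used strand, reads of the overlap cannot be assigned to either.

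**Figure D2:**
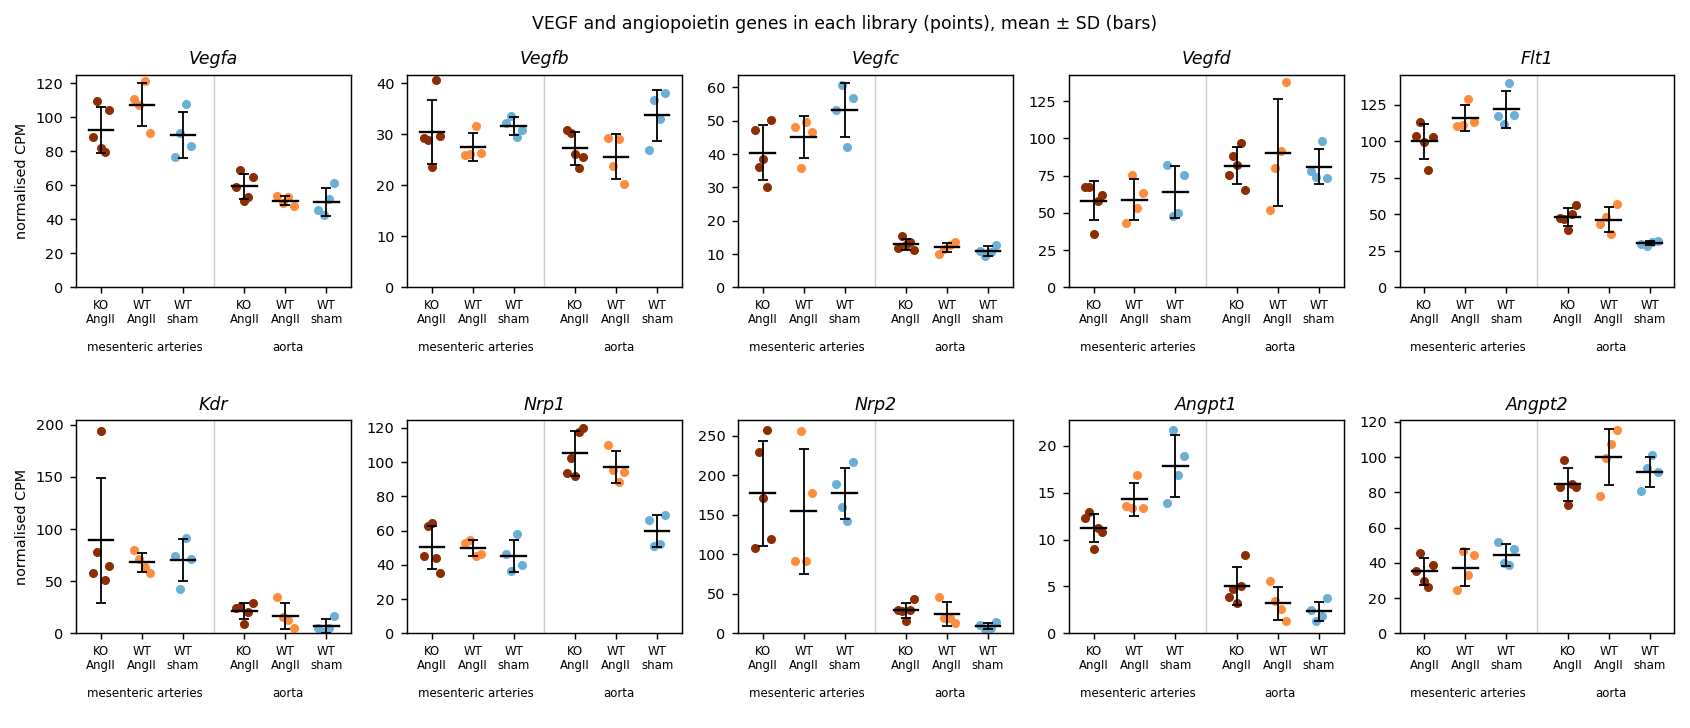
Level of each of the 10 genes (normalised CPM, linear axes from 0) in every library, as points with the mean and bars of 1 SD, for KO AngII, WT AngII and WT sham in mesenteric arteries and aorta. In the aorta every Flt1 and Nrp1 point of both infused groups lies above every sham point, whereas in mesenteric arteries the infused groups overlap sham.

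In the aorta under AngII, no member passed the test for loss of Sphk1 from smooth muscle. This comparison called 0.00593% of genes, which is Sphk1 alone, and 0 of 10 members by edgeR, DESeq2 or limma voom, with 1 member at an unadjusted p below 0.05 (608 genes in all). That member was Angpt2, at 82.8, 98.6, 73.0, 85.0 and 83.2 CPM in KO AngII aorta, against 78.0, 99.6, 107 and 116 CPM in WT AngII aorta. The groups overlapped, and the log2 fold change was -0.25 ± 0.109 (edgeR adjusted p = 0.981).

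The intervals of the other members set how large a difference these libraries could have shown. For Flt1 the log2 difference of KO from WT AngII aorta was 0.06 with an interval of -0.19 to 0.30, and for Nrp1 it was 0.11 with an interval of -0.12 to 0.35. For Vegfa it was 0.22 (-0.01 to 0.44). Kdr (0.34, -1.05 to 1.73), Nrp2 (0.23, -0.64 to 1.10) and Angpt1 (0.65, -0.19 to 1.49) were far less precise, and their intervals include differences of more than 2-fold.

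KO AngII aorta against WT sham aorta gave Flt1, Nrp1 and Nrp2 as higher, 3 of 10 members against 30.8% of genes. Flt1 stood at 47.6, 46.7, 39.2, 50.3 and 56.7 CPM in KO AngII aorta and Nrp1 at 93.6, 103, 91.9, 118 and 120 CPM, each wholly above the sham libraries given before. Nrp2 stood at 28.9, 28.2, 15.1, 29.6 and 42.9 CPM in KO AngII aorta, against 5.75 to 14.7 CPM in WT sham aorta. The log2 fold changes were 0.65 ± 0.117 for Flt1, 0.80 ± 0.111 for Nrp1 and 1.59 ± 0.42 for Nrp2 (edgeR adjusted p = 0.000762, 0.000106 and 0.0138). The sham libraries are the same as in the WT comparison, so the 2 comparisons are not independent. Angpt1 (1.09 ± 0.4, edgeR adjusted p = 0.0537) and Kdr (1.60 ± 0.667, edgeR adjusted p = 0.0931) did not pass.

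**Figure D3:**
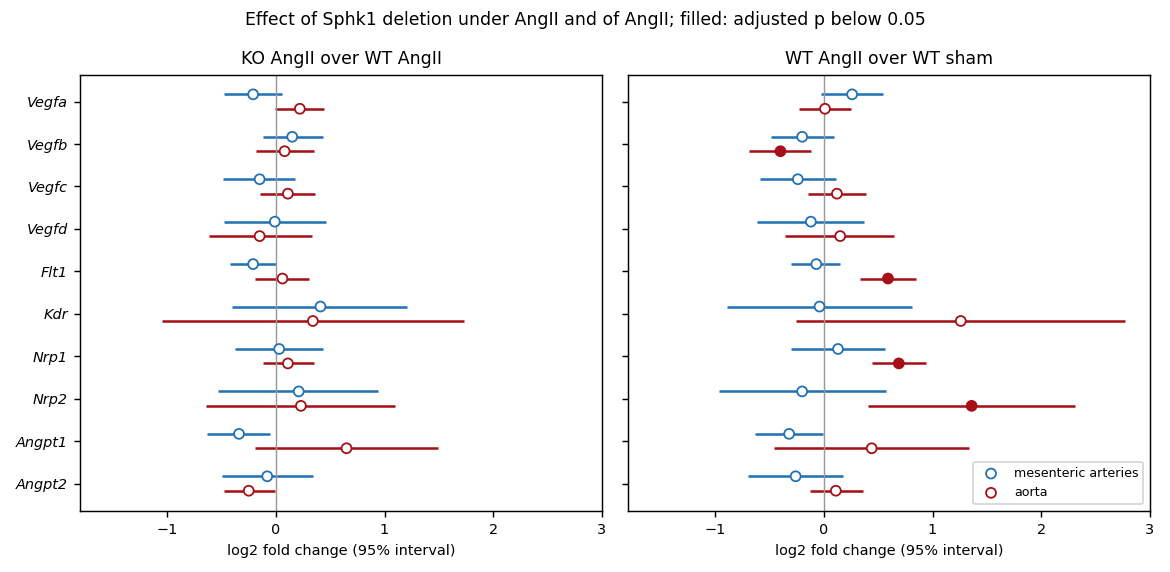
Log2 fold change of each gene with its 95% interval for KO AngII over WT AngII (left) and WT AngII over WT sham (right), blue for mesenteric arteries and red for aorta, filled where the adjusted p is below 0.05. The filled points are Flt1, Nrp1 and Nrp2 above 0 and Vegfb below 0, all in the aorta for WT AngII over WT sham, and the intervals of aortic Kdr, Nrp2 and Angpt1 are wide.

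Markers of several other cell types moved with these results in the aorta. In WT AngII against WT sham aorta, 12 of 12 macrophage markers, 5 of 6 lymphatic endothelial markers and 5 of 12 fibroblast markers rose, 1 fibroblast marker fell, 3 of 12 smooth muscle markers fell, and of 14 endothelial markers 2 rose and 4 fell. Summed macrophage markers spanned 1057 to 1246 CPM in KO AngII aorta, 826.3 to 1124 CPM in WT AngII aorta and 599.9 to 731.7 CPM in WT sham aorta. Summed endothelial markers spanned 774.3 to 1272, 821.4 to 1209 and 1115 to 1263 CPM, and summed fibroblast markers 16000 to 26720, 13390 to 29120 and 8128 to 8661 CPM in the same groups. Over the 13 aortic libraries the level of Nrp1 followed the macrophage list (r = 0.92, rho = 0.80). It followed the fibroblast list (r = 0.88, rho = 0.82) and the lymphatic endothelial list (r = 0.84, rho = 0.81) as well. The Schwann cell and neuron list rose with Nrp1 (r = 0.77, rho = 0.84), and the smooth muscle list ran against it (r = -0.78, rho = -0.83). Nrp2 followed the Schwann cell and neuron list (r = 0.94, rho = 0.97) and the fibroblast list (r = 0.91, rho = 0.92). Nrp2 also followed the macrophage list (r = 0.89, rho = 0.93) and the lymphatic endothelial list (r = 0.89, rho = 0.88). It ran against the smooth muscle list (r = -0.95, rho = -0.98). Flt1 followed the macrophage list (r = 0.76, rho = 0.62) and the fibroblast list (r = 0.71, rho = 0.63) less closely. None of the 3 followed the endothelial list: r was -0.33 (rho = -0.41) for Flt1, -0.31 (rho = -0.36) for Nrp1 and -0.16 (rho = -0.20) for Nrp2. These libraries share the group differences, and the part of the other cell types in the rise of Flt1, Nrp1 and Nrp2 was not tested.

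Adipocyte markers also varied among the aortic libraries. Of 13 markers 1 rose with AngII, and their summed level spanned 1721 to 3559 CPM in KO AngII aorta, 741.1 to 3577 CPM in WT AngII aorta and 649.9 to 2777 CPM in WT sham aorta. Over the 13 aortic libraries the level of Kdr followed the adipocyte list with r = 0.96 and rho = 0.97, that of Angpt1 with r = 0.92 and rho = 0.94, that of Nrp2 with r = 0.86 and rho = 0.89 and that of Vegfa with r = 0.83 and rho = 0.88. The corresponding value was 0.38 (rho = 0.41) for Flt1. In the mesenteric arteries Kdr (r = -0.14, rho = 0.07) and Angpt1 (r = -0.02, rho = -0.07) showed no such relation. With the adipocyte level as a covariate, the log2 fold change of Kdr in WT AngII against WT sham aorta was 0.74 ± 0.152 (edgeR adjusted p = 0.00225), that of Nrp2 was 0.97 ± 0.212 (edgeR adjusted p = 0.00441), and that of Angpt1 was 0.02 ± 0.242 (edgeR adjusted p = 0.962). Flt1 (0.61) and Nrp1 (0.63) differed little from their values without it. Other lists followed the same genes: the Schwann cell and neuron list had r = 0.92 and rho = 0.96 with Kdr, and the smooth muscle list r = -0.89 and rho = -0.95. These lists vary together, and the part of any 1 cell type in the levels of Kdr, Angpt1, Nrp2 or Vegfa was not tested.

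**Figure D4:**
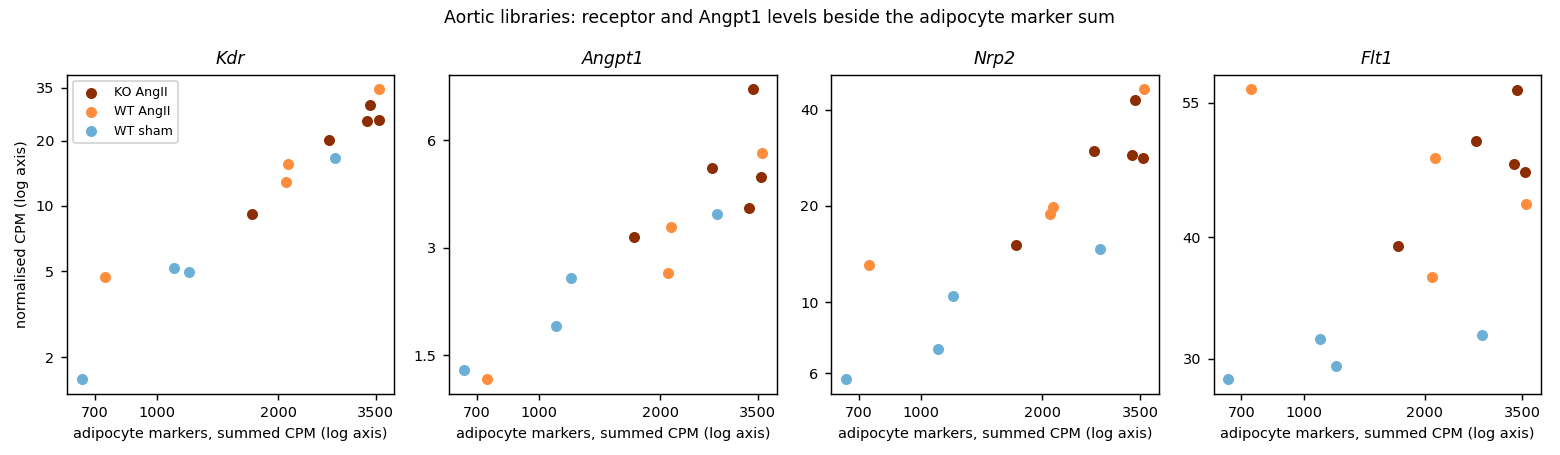
Level of Kdr, Angpt1, Nrp2 and Flt1 (CPM) against the summed level of 13 adipocyte markers (CPM) in the 13 aortic libraries, with both axes logarithmic and colours for KO AngII, WT AngII and WT sham. Kdr and Angpt1 follow the adipocyte level across groups, and Flt1 follows it least and separates infused from sham libraries. For Flt1 r was 0.38 with the mean log2 CPM of the markers, which is not the plotted sum.

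In the mesenteric arteries no member passed the test for AngII in WT mice. Over all genes, libraries varied more there than in the aorta (edgeR common dispersion 0.127 against 0.0286), so changes could in general be missed more easily. The members did not share this evenly: the SE was 0.103 for Flt1 and 0.197 for Nrp1, against 0.122 and 0.116 in the aorta. Over the members SEs were 0.103 to 0.389, against 0.111 to 0.689 in the aorta. In simulated counts with 67 genes changed at each fold, the mesenteric comparison recovered 17.9% of 1.5-fold and 62.7% of 2-fold changes. The aortic one recovered 53.7% and 92.5%. In the real aorta 25.5% of genes were called, far more than were changed in the simulation. These shares therefore describe genes in general under that setting and not these members. Of all genes 0.183% were called (32 of 17513, all higher), and 0 members by edgeR, DESeq2 or limma voom, with 1 member and 1864 genes at an unadjusted p below 0.05. Flt1 stood at 110, 111, 129 and 113 CPM in WT AngII mesenteric arteries, against 118, 112, 140 and 118 CPM in WT sham mesenteric arteries. The groups overlapped, and the log2 fold change was -0.07 with an interval of -0.30 to 0.15. Nrp1 averaged 49.7 ± 4.65 CPM in WT AngII and 45.3 ± 9.47 CPM in WT sham mesenteric arteries (0.13 on the log2 scale), and Vegfa 107 ± 12.7 and 89.8 ± 13.6 CPM (0.26, interval -0.03 to 0.54). Nrp2 was uneven, at 90.9, 256, 91.8 and 178 CPM in WT AngII and 189, 160, 142 and 217 CPM in WT sham mesenteric arteries (-0.20 ± 0.356).

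Loss of Sphk1 likewise gave 0 of 10 members in the mesenteric arteries under AngII by edgeR, DESeq2 or limma voom, with 1 member and 872 genes at an unadjusted p below 0.05, where 0.00571% of genes were called. Angpt1 was that member, at 12.2, 12.9, 9.03, 11.3 and 10.8 CPM in KO AngII mesenteric arteries, against 13.6, 13.4, 16.9 and 13.3 CPM in WT AngII mesenteric arteries. The groups did not overlap, and the log2 fold change of -0.34 ± 0.135 (interval -0.63 to -0.05) had an edgeR adjusted p of 0.798.

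Angpt1 stood at 13.9, 21.7, 16.9 and 18.9 CPM in WT sham mesenteric arteries, all above the KO AngII libraries. It fell in KO AngII against WT sham by 0.66 on the log2 scale (SE 0.135, edgeR adjusted p = 0.0485), the single member called there, against 0.708% of genes (0.251% lower). The direction was the same under all 22 alternatives (-0.77 to -0.55), but 16 of them did not pass the test, with adjusted p values by edgeR, DESeq2 or limma voom between 0.00127 and 0.314. The macrophage list, which ran against Angpt1 over the 13 mesenteric libraries (r = -0.78, rho = -0.68), was highest in KO AngII replicate 3, and its part in this difference was not tested.

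Kdr in KO AngII mesenteric arteries stood at 58.0, 78.1, 194, 51.2 and 64.1 CPM, against 79.6, 71.1, 63.6 and 58.1 CPM in WT AngII mesenteric arteries and 73.9, 42.9, 91.6 and 71.2 CPM in WT sham mesenteric arteries. Replicate 3 of the KO AngII mice was far above every other library, and the remaining libraries of the 3 groups overlapped. The log2 difference of KO from WT AngII was 0.41 ± 0.372 with replicate 3 and -0.11 ± 0.207 without it. Summed lymphatic endothelial markers in that library were 976.5 CPM, against 250 to 614.9 CPM in the other mesenteric libraries, and summed smooth muscle markers were 24030 CPM, against 34640 to 54960 CPM. The part of these cells in the high Kdr value was not tested.

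Among the other members in mesenteric arteries, Flt1 and Vegfc stood lowest in KO AngII mice without passing the test. Flt1 averaged 99.9 ± 12 CPM in KO AngII, 116 ± 8.72 CPM in WT AngII and 122 ± 12.5 CPM in WT sham, and its level followed the endothelial list over the 13 mesenteric libraries (r = 0.84, rho = 0.76). Vegfc averaged 40.5 ± 8.23, 45.1 ± 6.26 and 53.3 ± 8.02 CPM in the same groups and also followed that list (r = 0.76, rho = 0.71). In KO AngII against WT sham their log2 fold changes were -0.28 ± 0.0974 for Flt1 and -0.39 ± 0.153 for Vegfc, neither of which passed (edgeR adjusted p = 0.164 and 0.19). Summed endothelial markers spanned 2179 to 3759 CPM in KO AngII, 3302 to 4140 CPM in WT AngII and 4382 to 4674 CPM in WT sham mesenteric arteries. Vegfb (30.4 ± 6.27, 27.5 ± 2.73 and 31.6 ± 1.79 CPM), Vegfd (58.2 ± 13, 58.8 ± 13.8 and 63.9 ± 17.4 CPM) and Angpt2 (35.2 ± 7.56, 37.2 ± 10.4 and 44.5 ± 6.23 CPM) had overlapping ranges in the 3 groups.

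Larger differences lay between the vessels. Vegfa, Vegfc, Flt1, Kdr, Nrp2 and Angpt1 were higher in mesenteric arteries than in aorta in KO AngII, WT AngII and WT sham mice alike, and Angpt2 was lower in all 3. Called members numbered 8 in KO AngII, 9 in WT AngII and 7 in WT sham mice, against 47.6%, 40.4% and 38.4% of the 18520 genes tested. By direction, 6 members were higher and 2 lower in KO AngII mice (26.8% and 20.8% of genes), 6 higher and 3 lower in WT AngII mice (21.3% and 19.1%), and 6 higher and 1 lower in WT sham mice (20.7% and 17.7%). The members' median log2 differences were 0.84, 1.20 and 1.42, beside 0.058, 0.028 and 0.024 over all genes. Scaling by library size alone moved those medians over all genes to 0.196, 0.155 and 0.072. The tables of the tissues list their identifiers in different forms, so tissue differences may include differences in how reads were counted.

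Nrp2 differed most. It stood at 108, 230, 171, 257 and 120 CPM in KO AngII mesenteric arteries, against the 15.1 to 42.9 CPM of KO AngII aorta, and at 142 to 217 CPM in WT sham mesenteric arteries, against 5.75 to 14.7 CPM in WT sham aorta. No mesenteric library overlapped an aortic one. The log2 differences were 2.61 ± 0.376 in KO AngII, 2.65 ± 0.421 in WT AngII and 4.22 ± 0.454 in WT sham mice (edgeR adjusted p = 5.53e-06, 2.41e-05 and 9.25e-08), the last an 18.6-fold difference.

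Flt1 was higher in mesenteric arteries by 1.05 ± 0.108 on the log2 scale in KO AngII, 1.33 ± 0.121 in WT AngII and 2.01 ± 0.124 in WT sham mice (edgeR adjusted p = 3.07e-08, 5.92e-09 and 7.74e-12). Kdr was higher by 2.05 ± 0.499, 2.01 ± 0.559 and 3.30 ± 0.596 in the same groups (edgeR adjusted p = 0.00179, 0.00625 and 0.000107). Leaving out the 4 mesenteric libraries with over 10% of records not aligned, a choice made after seeing the data, took the KO AngII value of Kdr to 1.5 (edgeR adjusted p = 0.0602). Those were KO AngII replicates 2, 3 and 4 and WT AngII replicate 1, so only KO AngII replicates 1 and 5 remained in that mesenteric group. Of 14 endothelial markers, 13 were higher in mesenteric arteries in each group, while 1 was lower in KO AngII and WT AngII mice. Lymphatic endothelial markers were higher for 5, 4 and 4 of 6 and Schwann cell and neuron markers for 9, 7 and 9 of 9 in KO AngII, WT AngII and WT sham mice. Summed Schwann cell and neuron markers spanned 515.2 to 971.9 CPM in mesenteric libraries and 11.18 to 31.05 CPM in aortic ones. The part of these cell types in the vessel differences of the members was not tested.

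Nrp1 went the other way. It stood at 45.1, 62.7, 64.4, 43.8 and 35.3 CPM in KO AngII mesenteric arteries, all below the 91.9 to 120 CPM of KO AngII aorta. The log2 difference was -1.07 ± 0.148 in KO AngII and -0.97 ± 0.166 in WT AngII mice (edgeR adjusted p = 3.3e-06 and 5.8e-05), and -0.40 ± 0.165 in WT sham mice, which did not pass (edgeR adjusted p = 0.0589).

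Among the 4 VEGF ligands, Vegfc differed most between the vessels. It stood at 47.2, 36.2, 38.6, 30.1 and 50.2 CPM in KO AngII mesenteric arteries, against 11.7, 15.3, 12.7, 13.7 and 11.1 CPM in KO AngII aorta. The groups lay well apart, with log2 differences of 1.65 ± 0.137 in KO AngII, 1.91 ± 0.155 in WT AngII and 2.28 ± 0.156 in WT sham mice (edgeR adjusted p = 1.17e-09, 8.67e-10 and 4.27e-11). Vegfa was higher in mesenteric arteries by 0.64 ± 0.116, 1.07 ± 0.13 and 0.84 ± 0.13 in the same groups. Vegfb was not called in any group, and Vegfd in WT AngII mice only (-0.62 ± 0.244, edgeR adjusted p = 0.0466), where it was -0.34 (edgeR adjusted p = 0.257) without aortic WT AngII replicate 4.

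The angiopoietins differed in opposite directions. Angpt1 was higher in mesenteric arteries by 1.16 ± 0.291, 2.16 ± 0.336 and 2.93 ± 0.346 on the log2 scale in KO AngII, WT AngII and WT sham mice (edgeR adjusted p = 0.00227, 1.79e-05 and 3.58e-07). Angpt2 stood at 35.5, 45.8, 29.7, 26.5 and 38.6 CPM in KO AngII mesenteric arteries, against 82.8, 98.6, 73.0, 85.0 and 83.2 CPM in KO AngII aorta. No libraries overlapped, and the log2 differences were -1.26 ± 0.159, -1.43 ± 0.178 and -1.04 ± 0.176 in the 3 groups (edgeR adjusted p = 7.99e-07, 8.34e-07 and 4.82e-05).

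Whether the AngII response differed between the vessels was tested as an interaction over the 26 libraries, which called 2.34% of genes (0.68% higher and 1.66% lower) and 1 of 10 members. That member was Flt1, whose AngII effect was lower in mesenteric arteries than in aorta by 0.68 on the log2 scale (-0.68 ± 0.169, interval -1.03 to -0.33, edgeR adjusted p = 0.0331). The sign held under all 25 alternatives (-0.78 to -0.56), but 15 of them did not pass. In a single set of simulated counts 10.5% of the calls of this interaction test were false, above the share set by the threshold of 0.05. The interactions of Nrp1 (-0.57 ± 0.233), Nrp2 (-1.57 ± 0.571) and Kdr (-1.30 ± 0.779) were not called (edgeR adjusted p = 0.227, 0.167 and 0.463), so a vessel difference in their response was not shown. The effect of Sphk1 loss under AngII differed between vessels for 0 of 10 members by edgeR, DESeq2 and limma voom, where 0% of genes were called, with 2 members and 749 genes at an unadjusted p below 0.05. These were Vegfa (-0.43) and Angpt1 (-1.0 ± 0.435), with edgeR adjusted p values of at least 0.953.

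The partners of these genes were taken from a list of 14 further ligands, receptors, processing factors and adaptors. That list was chosen with earlier results of these data known, so its counts are a description and no independent support. In WT AngII against WT sham aorta 7 of 14 rose and 0 fell, beside 14.7% and 10.8% of all genes, with a median log2 fold change of 0.45 beside -0.001 over all genes. Pgf, the placental growth factor that binds FLT1, stood at 10.43, 21.33, 13.34 and 32.46 CPM in WT AngII aorta, against 3.929, 3.403, 3.596 and 1.565 CPM in WT sham aorta. The groups did not overlap, and the rise was 2.61 ± 0.374 on the log2 scale (edgeR adjusted p = 0.000351). KO AngII aorta held 10.12 to 19.03 CPM.

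Ccbe1 and Adamts3, which together mature VEGFC, also rose in WT AngII aorta, by 0.96 ± 0.142 and 0.88 ± 0.195 on the log2 scale, as did the adaptor Grb10 by 0.88 ± 0.189 (edgeR adjusted p = 0.000243, 0.00431 and 0.00448). Ccbe1 averaged 24.7 ± 3.17 CPM in KO AngII, 21.7 ± 4.05 CPM in WT AngII and 11.1 ± 1.38 CPM in WT sham aorta. The remaining receptors are named for their place in the pathway, outside the rule for naming genes. Flt4, the receptor of VEGFC and VEGFD, averaged 13.3 ± 2.48, 11.6 ± 4.04 and 5.88 ± 1.45 CPM in the same groups and rose by 0.96 ± 0.246 in WT AngII against WT sham (edgeR adjusted p = 0.0112), together with the lymphatic markers given before. Tek, the angiopoietin receptor, averaged 52.0 ± 16.4, 44.6 ± 10.5 and 67.9 ± 5.66 CPM and did not pass (-0.62 ± 0.232, edgeR adjusted p = 0.0694), nor did its partner Tie1 (-0.13 ± 0.158, edgeR adjusted p = 0.592).

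In mesenteric arteries 0 of 14 partners passed for AngII by edgeR, beside 0.183% of all genes, with 1 at an unadjusted p below 0.05. For Sphk1 loss under AngII 0 of 14 passed by edgeR in either tissue, beside 0.00571% of all genes in mesenteric arteries and 0.00593% in aorta. At an unadjusted p below 0.05 there were 1 in mesenteric arteries and 0 in aorta. Pgf averaged 18.9 ± 4.93 CPM in KO AngII, 22.6 ± 3.44 CPM in WT AngII and 20.2 ± 2.37 CPM in WT sham mesenteric arteries, near the level of infused aorta. Its AngII effect differed between the vessels by -2.46 ± 0.424 on the log2 scale (mesenteric minus aorta, edgeR adjusted p = 0.00228). In sham mice 9 of 14 partners were higher and 3 lower in mesenteric arteries than in aorta, beside 20.7% and 17.7% of all genes, with Flt4 (3.53 ± 0.282), Tie1 (2.22 ± 0.173), Ptprb (1.79 ± 0.151) and Pgf (2.68 ± 0.317) among the higher and Ccbe1 (-0.82 ± 0.296) among the lower.

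**Figure D5:**
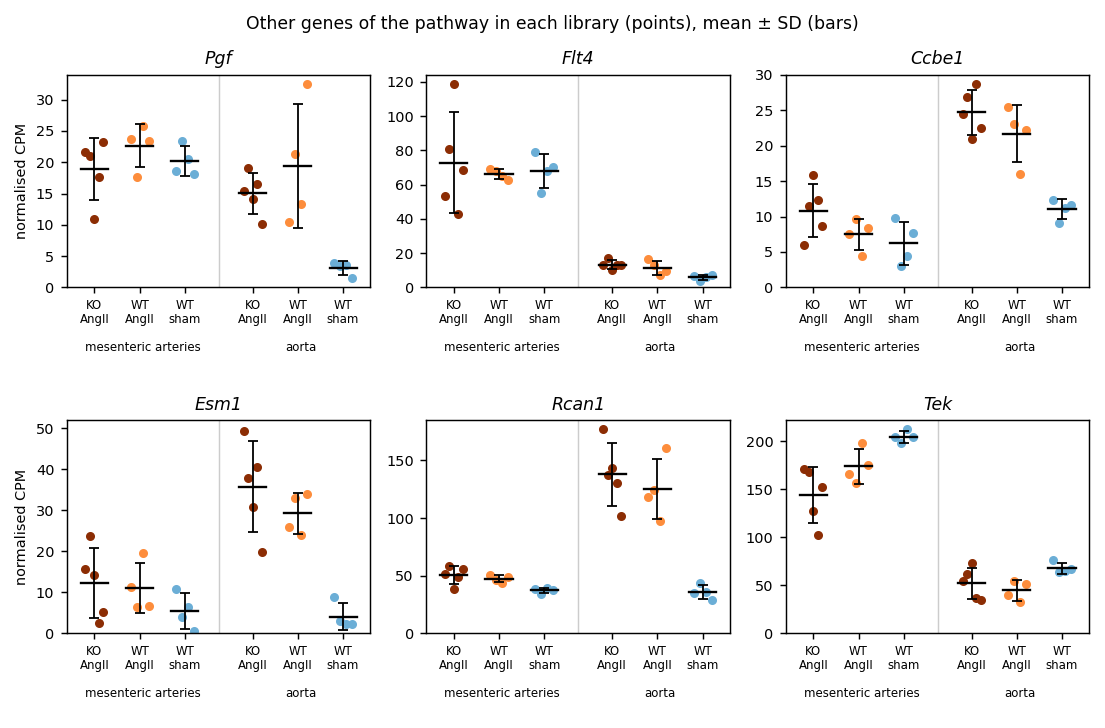
Level (normalised CPM, linear axes from 0) of Pgf, Flt4, Ccbe1, Esm1, Rcan1 and Tek in every library, as points with the mean and bars of 1 SD, by tissue and group. In the aorta Pgf spans 10.12 to 19.03 CPM in KO AngII, 10.43 to 32.46 CPM in WT AngII and 1.565 to 3.929 CPM in WT sham, whereas its mesenteric groups overlap.

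Genes of the endothelial VEGF response and of sprouting tip cells rose in part. In WT AngII against WT sham aorta 6 of 12 rose and 0 fell, beside 14.7% and 10.8% of all genes, with a median log2 fold change of 0.96 beside -0.001 over all genes. This list too was chosen with earlier results of these data known, so its counts are a description only. Which cells of the wall carried these rises, and the part of VEGF in them, was not tested. Rcan1, a calcineurin inhibitor induced by VEGF in endothelium, averaged 138 ± 27 CPM in KO AngII, 125 ± 26.4 CPM in WT AngII and 35.9 ± 5.96 CPM in WT sham aorta, a rise of 1.79 ± 0.181 in WT AngII against WT sham (edgeR adjusted p = 2.12e-05). Esm1, a tip cell marker, averaged 35.7 ± 11.1, 29.2 ± 4.97 and 4.1 ± 3.24 CPM in the same groups and rose by 2.78 ± 0.437 (edgeR adjusted p = 0.000854). The netrin receptor Unc5b (1.00 ± 0.155) and the chemokine receptor Cxcr4 (1.76 ± 0.374), which leukocytes also express, rose too (edgeR adjusted p = 0.000398 and 0.00358), beside the macrophage markers given before. In mesenteric arteries 0 of 12 passed by edgeR for AngII or for Sphk1 loss, beside 0.183% and 0.00571% of all genes. At an unadjusted p below 0.05 there were 2 and 1. For Sphk1 loss in the aorta 0 of 12 passed by edgeR, beside 0.00593% of all genes, with 2 at an unadjusted p below 0.05. The AngII effect on Rcan1 differed between the vessels by -1.46 ± 0.219 (edgeR adjusted p = 0.000675).

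The members also varied together within the aorta. Over its 13 libraries the levels of Kdr and Nrp2 had r = 0.94 (rho = 0.92), those of Nrp1 and Nrp2 r = 0.92 (rho = 0.90), those of Kdr and Angpt1 r = 0.90 (rho = 0.96) and those of Flt1 and Nrp1 r = 0.87 (rho = 0.85). Flt1 and its ligand gene Vegfb ran in opposite directions (r = -0.72, rho = -0.73). In mesenteric arteries the closest pairs were Vegfd with Angpt2 (r = 0.74, rho = 0.77) and Kdr with Nrp1 (r = 0.73, rho = 0.76). These values describe libraries that share groups, tissue make-up and depth.

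The genes whose levels were most like each member's were ranked by the lower of the 2 correlations, over 13 aortic and over 13 mesenteric libraries. For Kdr they were Acsf2 (0.94), Pcdh12 (0.91) and Slc28a2 (0.90), and for Nrp1 Nin (0.91), Gna13 (0.84) and Espl1 (0.84). Flt1 was closest to Tmod3 (0.87), Map4k4 (0.84) and Zdhhc3 (0.84), and Nrp2 to Bnc2 (0.88), Prag1 (0.88) and Lurap1l (0.87). Vegfd and Angpt2 shared Fhl1 (0.84 and 0.73) and Smoc1 (0.81 and 0.77), beside Ryk for Vegfd (0.79) and Agpat5 for Angpt2 (0.73). Vegfb was closest to the mitochondrial genes Pdk2 and Pmpcb and to the lactate dehydrogenase gene Ldhb (0.81 each), Angpt1 to Pcdh1 (0.82), Obsl1 (0.79) and Adgrl4 (0.78), Vegfa to Mapkapk3 (0.70), Gpd2 (0.68) and Irs1 (0.66), and Vegfc to genes that include Gorab (0.73) and Sept10 (0.67).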

How the data were processed

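The deposited values are read counts per gene, 1 table per library, made by the authors with cutadapt, HISAT2 and HTSeq on GRCm39, per the submitters' processing notes; versions, annotation and strand setting are not given in the sources used here. Identifiers are unversioned in the aortic tables (55416) and versioned in the mesenteric ones (55414), so versions were stripped. The 5 HTSeq summary lines (18.36 to 22.02% of aortic records, 20.36 to 33.6% of mesenteric records) stayed out of library sizes and tests. The labels' protocols name PureLink Micro for RNA isolation, NEBNext Ultra II Directional for the libraries and the NovaSeq. Symbols matched 52083 and 52081 identifiers.

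From the counts, edgeR 4.0.16 (R 4.3.3) kept genes by filterByExpr, scaled libraries by TMM and tested groups with the robust quasi-likelihood F test, Benjamini-Hochberg adjusted p below 0.05. The 3 groups of a tissue shared 1 model. Vessel differences and interactions were fitted over 26 libraries. That model used 1 estimate of the spread per gene for both tissues. The tissues differed in spread, with an edgeR common dispersion of 0.0286 in the aorta and 0.127 in mesenteric arteries. Printed CPM use TMM factors over the 26 libraries, correlations use log2 CPM with a prior count of 2, and SE is the absolute log2 fold change divided by the root of F. In correlations and as a covariate, the level of a marker list is the mean log2 CPM of its markers. Exon lengths came from GENCODE M21 on GRCm38 and promoters from RefSeq on GRCm38.p6, found for 8 of the 10 members.

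The rule for naming genes took all members, Sphk1, up to 4 called genes of smallest adjusted p per list and comparison, and 3 most similar genes per member, of which 1 is not reported here. The members and lists were chosen with earlier results of these data known. Alternatives were DESeq2 1.42.0, limma 3.58.1 voom, other scalings and filters, marker levels as covariates, the replicate block and leaving out libraries. The fits were tested on simulated data. False calls made up 10.5% of calls for the AngII interaction and 7.34% for KO AngII against WT AngII aorta. Both shares, each from a single simulated data set, are above the one set by the adjusted p threshold of 0.05. In the other comparisons simulated, from WT AngII against WT sham aorta to mesenteric arteries against aorta in WT AngII mice, the share was 2.99 to 4.64%.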

Additional observations from a re-analysis of the deposited data

Results flagged for a closer look

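In 60 groups of 4 or 5 libraries examined, 4 held a library far from the others, and chance alone flags about 1 in 20 groups. Kdr in mesenteric KO AngII replicate 3 was at 194.4 CPM, against 51.22 to 78.07 CPM in the other libraries of that group. The other 3 are the same library, mesenteric WT AngII replicate 3, which was highest for Flt1 at 129 CPM (others 110.5 to 113.3), for Vegfb at 31.59 CPM (others 25.95 to 26.41) and for Angpt1 at 16.88 CPM (others 13.34 to 13.59). The AngII effect on Flt1 differed between the vessels by -0.68 on the log2 scale (mesenteric minus aorta), as the interaction described in the report.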

How the results depend on the processing

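Over 110 results for the members and 2260 values under alternatives, 2073 kept their direction and their side of the threshold, 61 lost the call, 22 gained one, 104 changed sign without being called and 0 reversed a called direction. Leaving out 1 library at a time gave 2 to 4 called members for WT AngII against WT sham aorta (4 with all libraries; 2 without WT AngII replicate 2 or sham replicates 2 or 3), 3 to 6 for KO AngII against WT sham aorta (3 with all; 6 without sham replicate 4), 0 to 1 for KO AngII against WT sham mesenteric arteries (1 with all), and 0 to 1 for the AngII interaction (1 with all; 0 in 12 of 16). For mesenteric arteries against aorta it gave 8 in KO AngII, 8 to 9 in WT AngII and 7 to 8 in WT sham mice. The aortic count for WT AngII was 2 with the endothelial covariate and with only the groups compared, and that for KO AngII against WT sham was 6 by limma voom and 5 with only the groups compared. The mesenteric count for KO AngII against WT sham was 0 under RLE factors, no filter, the replicate block, the endothelial or gut covariate, only the groups compared, without KO AngII replicate 3 and WT AngII replicate 1 together, and without the 4 libraries in which more than 10% of records did not align (added after seeing the data). The count for the AngII interaction was 0 with library size alone, under the replicate block and without those 2 libraries (added after seeing the data). The cause was not tested.

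Replicate numbers were not treated as pairs, since the labels do not say whether same-numbered libraries of both vessels share a mouse. Over 13 same-numbered pairs across tissues the correlation of deviations was -0.19 to 0.22, with 6 above 0.1, and 6 of 13 libraries correlated best with their own number. The replicate block moved the calls over all genes for KO AngII against WT sham mesenteric arteries to 19 higher and 1 lower, against 80 and 44 without it, and for the AngII interaction to 52 and 138, against 126 and 308. In WT AngII against WT sham mesenteric arteries 32 genes were higher and 0 lower, against 8 and 0 under the block, 230 and 58 by DESeq2, 197 and 53 by limma voom, 15 and 0 with library size alone, and 72 and 6 with only the groups compared. For KO AngII against WT sham mesenteric arteries DESeq2 gave 922 and 487 and limma voom 262 and 213, and for the AngII interaction they gave 323 and 550, and 538 and 713. Library size alone gave 1747 higher and 3729 lower in WT AngII against WT sham aorta, against 2475 and 1826. For mesenteric arteries against aorta it gave 6715 and 2648 in KO AngII, 5114 and 2471 in WT AngII and 3964 and 2726 in WT sham mice, against 4955 and 3857, 3939 and 3544, and 3828 and 3286. For KO AngII against WT AngII the single call, Sphk1, compares with 4 higher and 2 lower by DESeq2 and 1 and 2 under the block in the aorta. In mesenteric arteries it compares with 0 calls with library size alone, under the block, with the gut covariate, with only the groups compared and without the 2 libraries, and with 56 higher and 1 lower without the 4 poorly aligned ones. Aortic libraries held down to 35 reads of Angpt1 and 42 of Kdr.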

Other observations

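Class 3 semaphorins and plexins signal with the neuropilins. In WT AngII against WT sham aorta 3 of 12 rose and 1 fell, beside 14.7% and 10.8% of all genes, a share near that of all genes. The co-receptor Plxna1 averaged 81.7 ± 4.18 CPM in KO AngII, 81.1 ± 3.61 CPM in WT AngII and 60.8 ± 2.27 CPM in WT sham aorta, a rise of 0.40 ± 0.0612 on the log2 scale in WT AngII (edgeR adjusted p = 0.000282). Plxna3 (0.60 ± 0.157) and Plxna2 (0.39 ± 0.134) also rose and Plxna4 fell by 0.32 (edgeR adjusted p = 0.0117, 0.0429 and 0.0138), and none of the 7 semaphorins passed. Between vessels, Sema3g averaged 375 ± 97.6 CPM in WT sham mesenteric arteries and 14.2 ± 2.34 CPM in WT sham aorta (4.72 ± 0.292, edgeR adjusted p = 1.04e-11), whereas Sema3d averaged 28.5 ± 10 and 136 ± 7.57 CPM (-2.25 ± 0.279, edgeR adjusted p = 7.85e-07). For Sphk1 loss 0 of 12 passed by edgeR in either tissue, beside 0.00571% of all genes in mesenteric arteries and 0.00593% in aorta. At an unadjusted p below 0.05 there were 0 in mesenteric arteries and 1 in aorta.

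Of 16 hypoxia regulators and targets, 1 rose and 2 fell in WT AngII against WT sham aorta, beside 14.7% and 10.8% of all genes, with a median log2 fold change of -0.08. Hif1a, the oxygen-sensitive transcription factor subunit, averaged 241 ± 66 CPM in WT AngII and 158 ± 9.5 CPM in WT sham aorta (0.60 ± 0.139, edgeR adjusted p = 0.006). Its relative Epas1, abundant in endothelium, averaged 255 ± 36.7 and 353 ± 17.9 CPM and fell by 0.48 (SE 0.113, edgeR adjusted p = 0.00625), and the oxygen-sensing hydroxylase Egln3 fell by 0.55 (edgeR adjusted p = 0.0187). In mesenteric arteries 0 of 16 passed for AngII by edgeR, beside 0.183% of all genes, with 4 at an unadjusted p below 0.05.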
